A study of Homo sapiens with 3 samples.

Results

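The mitochondrial carriers of the SLC25 family and the translocases that bring proteins into mitochondria were examined in HT-29 cells, an established human colon adenocarcinoma line, after treatment with interferon-γ. A gene belonged to the set if its symbol was SLC25A or TOMM or TIMM followed by a number, or was UCP2 or UCP3, and if at least 1 probe set listed it as its only gene. This gave 46 genes among 11963 named genes, namely 30 carriers and 16 import translocases, read from 68 probe sets. All 3 arrays measured HT-29 cultures given 200 U/ml interferon-γ for 24 h, described by the series as biological replicates. Untreated cultures were not analysed here, so every value below is a level in treated cells, and none measures a response to interferon-γ.

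SLC25 proteins are small transporters of the mitochondrial inner membrane that exchange nucleotides, phosphate, carboxylates, amino acids and cofactors between the cytosol and the matrix. Most are made in the cytosol without a cleaved presequence, although the mammalian phosphate and citrate carriers have one. The TOM complex of the outer membrane receives them, small TIM chaperones escort them across the intermembrane space, and the TIM22 complex inserts them in the inner membrane, whereas the TIM23 complex imports proteins that carry a presequence. Epithelial cells of the colon rely on mitochondrial oxidation of short-chain fatty acids, and dividing tumour cells export citrate for lipid synthesis.

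For each gene it was asked whether the signal exceeded array background beyond the spread of the cultures. Signal here is the deposited linear intensity of a probe set, and a gene was read from its brightest probe set by mean log2 signal. The limit of background on an array was the 95th percentile over 74 genes that other tissues express, which came to 159 in replicate 1, 174 in replicate 2 and 157 in replicate 3. A gene was called detected when limma's one-sided test of log2 signal minus the limit had a Benjamini-Hochberg adjusted p under 0.05 over all 11963 genes. Signals of different probe sets depend on their sequences and were not ranked against each other. Of 10 epithelial markers 8 were detected, the exceptions being CDH17 and GPA33, and of 12 measured fibroblast, endothelial and immune markers none passed limma's test (0 at an unadjusted p under 0.05).

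The names in the deposited table appeared displaced against the values beside them, judged by agreement between probe sets of one gene. An order inferred from that agreement was used. Each of 11 stretches of up to 2000 probe sets was compared with further probe sets of the genes it names. At the inferred place r was 0.33 to 0.62, and at places 1 to 5 rows away it was at most 0.26. This r measures the same kind of agreement in the same values, so it is not an independent check. The 17 carriers and translocases with several probe sets gave r = 0.65 in the inferred order and r = 0.01 as deposited. Displacements far from the best one over all genes reached r = 0.90, there over 16 of these genes, so these genes alone are too few to fix the order. Of the 68 probe sets, 66 lie in those stretches, 1 (SLC25A3) in a first block of 100 and 1 (the second probe set of SLC25A44) in a block of 493. The placement of the first block rests on 42 probe sets with r = 0.45. The values of that block are all 331 or higher, so SLC25A3 would lie above the limit on any of them. The placement of the block of 493 rests on 446 probe sets with r = 0.34, against at most 0.13 at places 1 to 5 rows away.

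**Figure D1:**
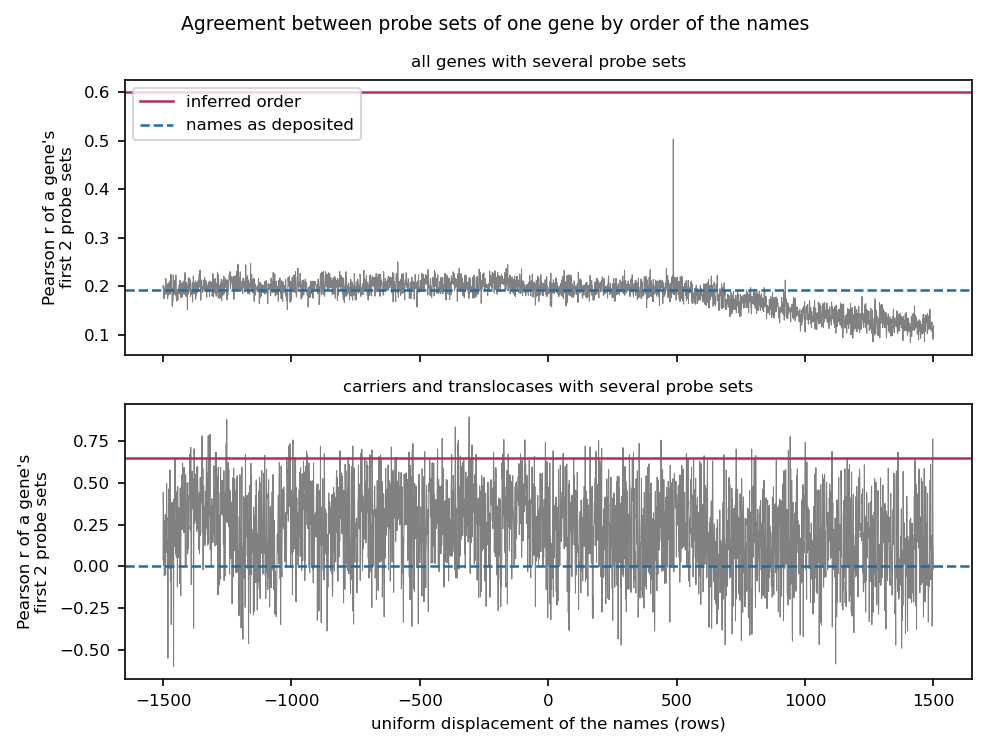
Pearson r between the first 2 probe sets of a gene (vertical axis) against the number of rows by which all names were displaced (horizontal axis), for 4310 genes (top) and for the 17 carriers and translocases with several probe sets (bottom). The top trace has a sharp peak at 487 rows, and the red line of the inferred order (r = 0.60) lies above it, whereas the bottom trace scatters across its line.

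Genomic stretches before the start of some of these genes are shown first, because many detected members share a run of letters in windows around the gene start. RefSeq windows from 250 bases before to 50 after the gene start (GRCh38.p14) were matched for 41 of the 46 genes, the others being SLC25A16, SLC25A30, SLC25A32, SLC25A37 and TIMM8B. The letters CCGGAAG, on either strand, are the core bound by ETS factors, among them GABP, a known regulator of nuclear genes for mitochondria. They were found for 15 of 34 detected members (44.1%) and for 0 of 7 that were not detected. The share was 24.9% of 4653 detected genes and 11.1% of 4910 genes that were not detected, so a count of 0 among 7 is near the share of such genes. This pattern was singled out of 5 after the calls were seen. A match is only a run of letters, and the share was not tested. The stretches of 60 bases below are on the gene's strand, with the match in capitals, for a TOM receptor, a small TIM chaperone and 3 carriers.
TOMM20, chr1:235128838-235128897, minus strand: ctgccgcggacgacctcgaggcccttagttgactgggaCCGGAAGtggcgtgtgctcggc
TIMM10, chr11:57530755-57530814, minus strand: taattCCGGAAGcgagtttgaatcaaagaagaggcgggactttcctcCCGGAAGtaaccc
SLC25A24, chr1:108200392-108200451, minus strand: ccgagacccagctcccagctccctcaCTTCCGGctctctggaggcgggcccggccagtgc
SLC25A17, chr22:40819361-40819420, minus strand: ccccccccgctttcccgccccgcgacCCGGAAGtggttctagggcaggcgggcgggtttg
SLC25A20, chr3:48898942-48899001, minus strand: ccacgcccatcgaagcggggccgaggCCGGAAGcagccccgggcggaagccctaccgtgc

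TIMM10 carries the letters at both ends of its stretch, and SLC25A24 carries them on the opposite strand. The letters CCAAT were found for 15 of 34 detected members (44.1%), against 45.5% of all detected genes, and for 6 of 7 members that were not detected, against 43.0% of such genes. The core of the NRF1 site, GCGCA and GCGC with any base between them, was found on either strand for 5 of 34 detected members (14.7%), close to the 15.2% of all detected genes. The median GC content of the windows was 65.7% for members and 64.0% for named genes.

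Most carriers and translocases were detected in the treated cells. By limma's test 37 of 46 members passed, against 45.8% of all named genes, with a median of 1.93 log2 units over the limit for members and 0.24 for all genes. Among the 30 carriers 23 passed, and among the 16 translocases 14 did. The 9 genes that did not pass were SLC25A21, SLC25A23, SLC25A30, SLC25A31, SLC25A37, SLC25A42, UCP3, TIMM22 and TIMM50. All but TIMM22 and TIMM50 are carriers. Among them SLC25A31, UCP3 and SLC25A37 are known from testis, muscle and red cell precursors. SLC25A4 and SLC25A12, known from muscle among other tissues, were detected, and a link between calls and tissue was not tested.

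**Figure D2:**
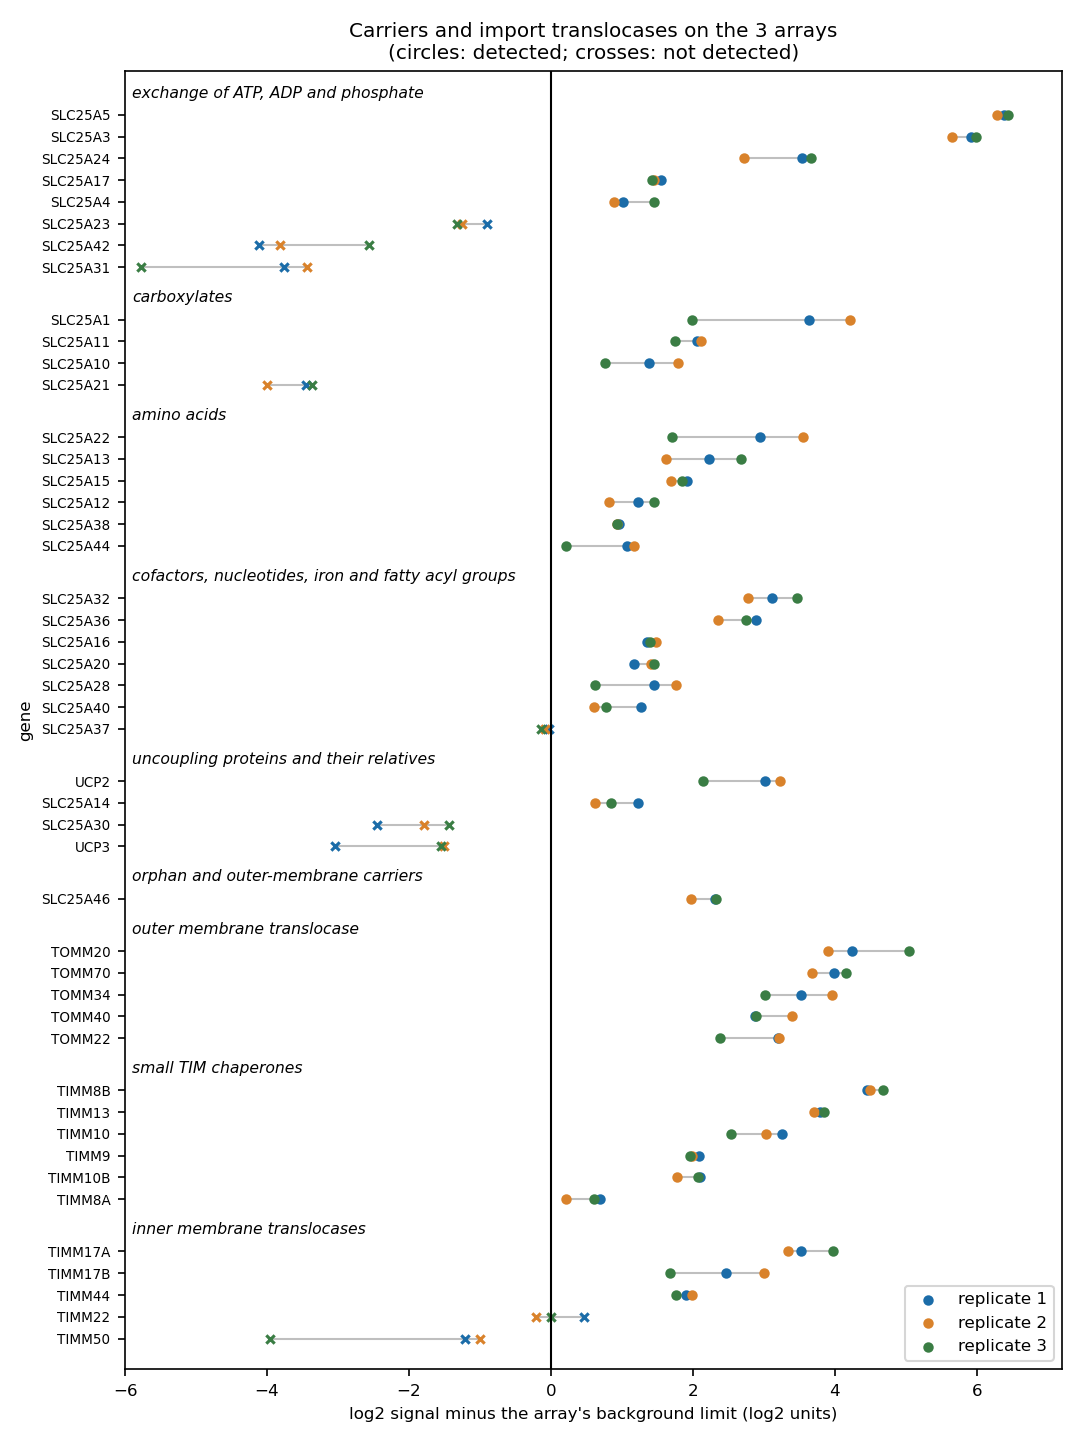
Log2 signal minus the array's background limit (horizontal axis, log2 units) for each of the 46 genes (rows, grouped by role), with a point for each of replicates 1, 2 and 3 and a grey line over their range. The black line is the limit, circles are detected genes and crosses are not detected. All 5 TOMM genes and all 6 small TIM chaperones lie right of the limit on every array.

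Carriers that exchange adenine nucleotides and phosphate were detected for 5 of 8 measured members. SLC25A5, the ADP/ATP translocase of dividing cells, had signals of 13294, 13632 and 13600.1 in replicates 1, 2 and 3. The cultures were nearly alike in it, with an SD of 0.02 log2 units, and SLC25A5 lay 6.37 ± 0.18 log2 units over the limit (SE, n = 3; limma adjusted p = 7.2e-08). Here and below, SE is limma's moderated standard error, which draws on the variance of other genes as well as on these cultures. SLC25A3, the phosphate carrier that feeds ATP synthase, had 9580.4, 8794 and 9959. It exceeded the limit by 5.85 log2 units, and both genes kept close values on all arrays. SLC25A4, the ADP/ATP translocase of heart and muscle, had 320.2, 322 and 429.8, and its second probe set stayed under the limit at 81.7, 86.4 and 72.8. SLC25A4 was no longer called when the median over its probe sets was used (0.29 log2 units, limma adjusted p = 0.217).

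The other nucleotide exchangers divided by isoform. SLC25A24, a calcium-regulated carrier of ATP-magnesium and phosphate, had 1843, 1148 and 1979, lowest in replicate 2. SLC25A23, another carrier of that type, had 85.4, 73.0 and 62.3, all under the limit. Only the first of this pair was detected, at 3.31 log2 units over the limit, and SLC25A23 lay under it at -1.16. SLC25A17, a carrier of cofactors and nucleotides in peroxisomes, had 463, 476 and 419.5, and both of its probe sets lay above the limit on every array. SLC25A31, the ADP/ATP translocase of male germ cells, had 11.7, 16.1 and 2.85. SLC25A42, a carrier of coenzyme A, had 9.21, 12.3 and 26.6. Both lay far under the limit in every culture, at -4.33 log2 units for SLC25A31 and -3.50 for SLC25A42.

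Among carboxylate carriers 3 of 4 were detected, and all 3 had their highest signal in replicate 2 and their lowest in replicate 3. SLC25A1, the citrate carrier that supplies carbon for fatty acid synthesis, had 1979, 3244 and 624. Its SD of 1.22 log2 units was the largest among the 37 detected members, yet it lay 3.28 ± 0.37 log2 units over the limit (SE, n = 3; limma adjusted p = 4.4e-05). SLC25A10, the dicarboxylate carrier, had 415, 602 and 266. SLC25A11, the oxoglutarate carrier of the malate-aspartate shuttle, had 663, 757 and 525 on one probe set and 687, 764 and 495 on the other. Both probe sets ordered the cultures alike. SLC25A10 lay 1.31 and SLC25A11 1.97 log2 units above the limit (limma adjusted p = 0.000685 and 7.95e-06). SLC25A21, which carries oxoadipate in lysine and tryptophan breakdown, had 14.5, 10.9 and 15.2, which is -3.60 log2 units relative to the limit, and was not detected.

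All 6 measured amino acid carriers were detected, from 0.81 log2 units over the limit for SLC25A44 to 2.73 for SLC25A22. SLC25A13 and SLC25A12 are the calcium-regulated aspartate/glutamate carriers. SLC25A13, the form of liver and other epithelia, had 739.8, 535 and 1003, with replicate 3 highest. SLC25A12, the form of brain and muscle, had 371, 309 and 429, and 219, 233 and 194 on its second probe set, so its probe sets disagreed on which culture was highest. Without probe sets of the _x_at and _s_at designs, which can hybridise to related transcripts, SLC25A12 rested on the second and was not called (0.47 log2 units, limma adjusted p = 0.0586).

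The glutamate carrier SLC25A22 had 1229, 2042 and 509.7. Replicate 3 was lowest and replicate 2 highest, with an SD of 1.01 log2 units. SLC25A15, the ornithine carrier of the urea cycle, had 597, 563 and 563, close to constant. SLC25A38, which brings glycine into mitochondria for haem synthesis, had 309, 334 and 299, 0.94 log2 units above it (limma adjusted p = 0.00127). It was not called with the 99th percentile as the limit. SLC25A44, a carrier of branched-chain amino acids, had 333, 392 and 181, and 231, 224 and 266 on its second probe set. These probe sets placed replicate 3 at opposite ends. The call for SLC25A44 (0.81 log2 units, limma adjusted p = 0.0123) was lost without replicate 1 (adjusted p = 0.0858) and with the 99th percentile as the limit (adjusted p = 0.386).

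Of 7 measured carriers of cofactors, nucleotides, iron and acyl groups 6 were detected, from 0.88 log2 units over the limit for SLC25A40 to 3.12 for SLC25A32. SLC25A32, the carrier of folate and FAD, had 1377, 1191 and 1726, all well over the limit. SLC25A36, a pyrimidine nucleotide carrier, had 1172, 895 and 1049.5, and all 3 of its probe sets lay above the limit on every array. SLC25A20, the carnitine/acylcarnitine carrier of fatty acid oxidation, had 356, 463 and 429. These genes were called under every alternative run on them that kept the inferred order of the names. SLC25A40, linked to mitochondrial glutathione import, had 381, 265 and 267. It was highest in replicate 1 and was not called without that array (limma adjusted p = 0.0674) or with the 99th percentile as the limit (adjusted p = 0.266).

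The mitoferrins, which carry iron for haem and iron-sulfur cluster synthesis, gave different calls. SLC25A28, the form found in many tissues, had 435, 592 and 239.8, and exceeded the limit by 1.28 log2 units (limma adjusted p = 0.00121). SLC25A37, the form of red cell precursors, had 156, 165 and 143 on its brightest probe set, just under the limit on every array. Its other probe sets had 44.3, 25.3 and 13.5, and 74.6, 101 and 40.4. No probe set of SLC25A37 was above the limit on any array. SLC25A16, a carrier linked to coenzyme A, had 408, 486 and 414, but only on a probe set of the cross-hybridising _x_at design. Its other probe sets lay under the limit in every culture, one with 62.1, 47.6 and 99.1 and one between 93.2 and 101.

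Uncoupling proteins and their relatives gave 2 of 4. UCP2, an uncoupling protein found in many tissues including gut, had 1284, 1636 and 692. Its second probe set had 1031, 1229.8 and 526, so both had replicate 3 lowest by a similar margin, and UCP2 lay 2.80 log2 units over the limit. SLC25A14, a brain-type relative, had 373, 269 and 281, while its second probe set reached 302, 107 and 183 and was above the limit on 2 arrays. SLC25A14 was not called without replicate 1 (0.73 log2 units, limma adjusted p = 0.0514) or with the 99th percentile as the limit (0.36 log2 units, adjusted p = 0.232). UCP3, the form of skeletal muscle, had 19.2, 61.3 and 53.3 on the brighter of 2 probe sets. SLC25A30, a kidney-type relative, had 29.2, 50.5 and 58.1. Neither had a probe set above the limit on any array, and UCP3 lay at -2.04 and SLC25A30 at -1.89 log2 units. SLC25A46, an outer membrane member of the family that acts in mitochondrial fission, had 789.8, 686 and 783 and was detected at 2.20 log2 units over the limit.

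All 5 measured TOMM genes were detected. All but TOMM34 encode subunits of the TOM complex, through which nearly all imported proteins pass. TOMM20, the receptor for presequences, had 3013, 2613 and 5189. Replicate 3 was the highest, as it was on the second probe set with 2186, 2132 and 2762. TOMM70, the receptor that binds carriers and their chaperones, had 2520.1, 2243 and 2797, and its second probe set had 1801, 1862 and 2281. TOMM40, the channel, had 1162, 1831 and 1162, and TOMM22, the central receptor, had 1460.5, 1612 and 813. TOMM34, a cytosolic cochaperone of import, had 1824, 2719.8 and 1268. TOMM22 and TOMM34 were lowest in replicate 3 and TOMM40 was as low in replicate 3 as in replicate 1, whereas TOMM20 and TOMM70 were highest in replicate 3. The 5 genes lay between 2.93 and 4.40 log2 units over the limit.

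All 6 small TIM chaperones, which bind hydrophobic carriers in the intermembrane space, were detected, with TIMM8B at 4.54 log2 units over the limit and TIMM8A at 0.50. TIMM8B had 3490.4, 3919 and 4019, and its partner TIMM13 had 2206, 2288 and 2249, with SDs of 0.11 and 0.03 log2 units. TIMM9 had 675, 690.0 and 608, and TIMM10, which forms a complex with it, had 1519, 1424 and 913. TIMM10 was lowest in replicate 3, and the other 3 of these genes varied little. TIMM10B, which docks the chaperones at the TIM22 complex, had 684, 599 and 661.

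TIMM8A was the least secure of the 37 calls. It had 256, 203 and 239, at 0.50 ± 0.21 log2 units over the limit (SE, n = 3; limma adjusted p = 0.0495). Its other probe set had 9.64, 23.7 and 3.23, far under the limit. The call was lost without replicate 1 (adjusted p = 0.271), without replicate 3 (adjusted p = 0.101) and under 5 other alternatives.

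The inner membrane translocases gave 3 of 5. TIMM17A and TIMM17B are alternative subunits of the presequence translocase. TIMM17A had 1819.9, 1771 and 2459, highest in replicate 3, whereas TIMM17B had 879, 1399.9 and 500.2, lowest in replicate 3. TIMM17A had 4 probe sets, of which a second bright one had 2083, 1557 and 2192. The others lay under the limit in every culture, with 73.0, 66.9 and 128, and 0.959, 22.2 and 1.60. Both bright probe sets of TIMM17A were of the _s_at design, and without that design it lay at -0.86 log2 units.

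TIMM44, which tethers the import motor, had 593, 694 and 532, and 165, 219 and 220.3 on its second probe set. Both were above the limit on every array, but on the second alone TIMM44 did not pass (0.36 log2 units, limma adjusted p = 0.148, without _x_at and _s_at designs). TIMM22, the carrier insertase, had 219, 150.4 and 157 on a single _x_at probe set, straddling the limit (0.08 ± 0.24 log2 units; SE, n = 3; limma adjusted p = 0.702). TIMM50, a receptor of the presequence translocase, had 68.9, 87.0 and 10.1 on a single probe set, under the limit in every culture. TIMM22 was above the limit on 2 of 3 arrays and TIMM50 on 0, at -2.05 log2 units. TIMM17A, TIMM17B and TIMM44 lay at 3.61, 2.38 and 1.89 log2 units.

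Of 17 members with several probe sets, 9 exceeded the limit with each of them on every array, 5 with some and 3 with none. For 10 genes at least 2 probe sets were above the limit throughout, and these could be compared for replicate 3 against replicate 2. In 6 of the 10 all such probe sets differed in the same direction, close to the 64.0% of 1687 named genes of this kind. They were SLC25A11, SLC25A36, TIMM17A, TOMM20, TOMM70 and UCP2. For UCP2 the difference was -1.24 and -1.22 log2 units. In SLC25A12, SLC25A17, SLC25A44 and TIMM44 the probe sets differed in sign.

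**Figure D3:**
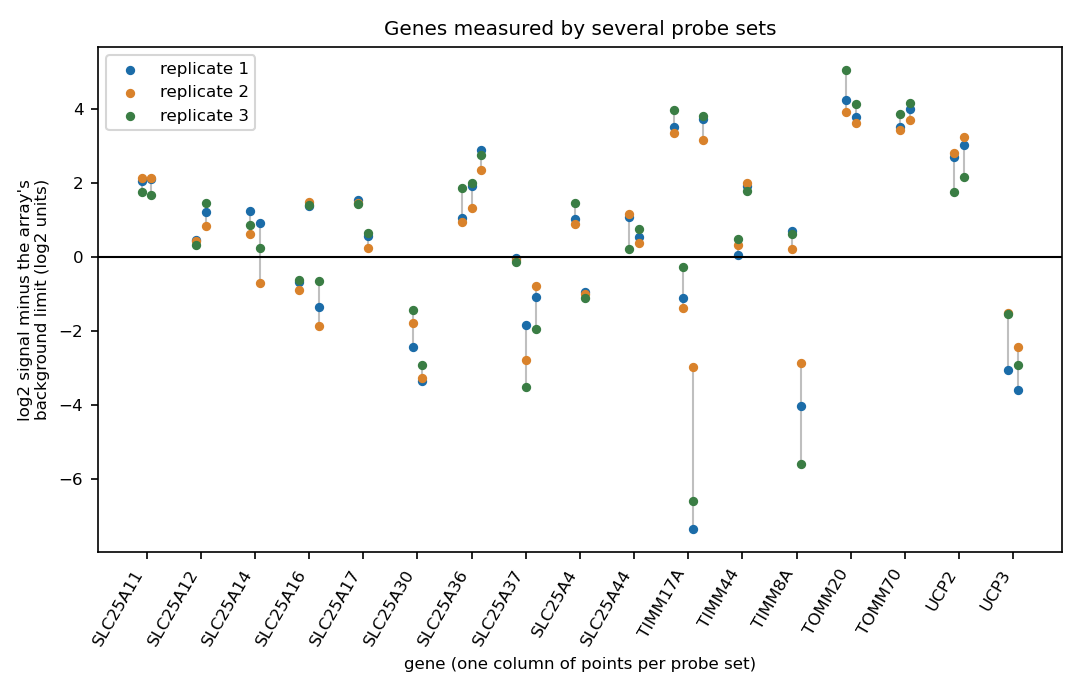
Log2 signal minus the array's background limit (vertical axis, log2 units) for the 17 genes with several probe sets, with a column of points per probe set and a colour per replicate. SLC25A4, SLC25A14, SLC25A16, TIMM17A and TIMM8A have points on both sides of the black line that marks the limit, whereas all probe sets of SLC25A30, SLC25A37 and UCP3 lie under it.

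Detected members spread between the cultures about as detected genes did in general, with quartiles farther apart. The median SD of log2 signal was 0.26 for the 37 detected members, with quartiles of 0.11 and 0.52, and 0.29 for all 5478 detected genes. Of the members 13 lay under the first quartile of all detected genes (0.18) and 12 above the third (0.43). The steady end held SLC25A5, TIMM13 and SLC25A15. The variable end held SLC25A1, SLC25A22, TIMM17B, SLC25A28 and UCP2, with SDs of 1.22, 1.01, 0.74, 0.66 and 0.64. No batch labels were given for the arrays, and what differed between the cultures was not tested. In bulk RNA, fewer cells with a transcript and less of it per cell cannot be told apart.

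Replicates 2 and 3 differed most. They lay over 1 log2 unit apart in 8 of 37 detected members, against 12.7% of all detected genes, whereas replicates 1 and 3 did so in 2 members (5.41%, against 5.66%) and replicates 1 and 2 in 0 (against 1.86%). The order replicate 2, replicate 1, replicate 3 from high to low was found in 15 of 37 members, against 28.6% of all detected genes. Among the 12 members with SDs above the third quartile 9 had this order, against 49.7% of 1370 detected genes with such SDs. They were SLC25A1, SLC25A22, TIMM17B, SLC25A28, UCP2, SLC25A10, SLC25A44, TOMM34 and TOMM22, of which SLC25A44 had another order on its second probe set. The opposite order was found in 8 of 37 members, close to the 23.3% of all detected genes, with TOMM20, SLC25A13 and SLC25A24 varying most. The lowest signal was in replicate 3 in 16 of 37 members, close to the 44.8% of all detected genes. It was in replicate 2 in 15 members and in replicate 1 in 6, against 35.8% and 19.4% of all detected genes.

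**Figure D4:**
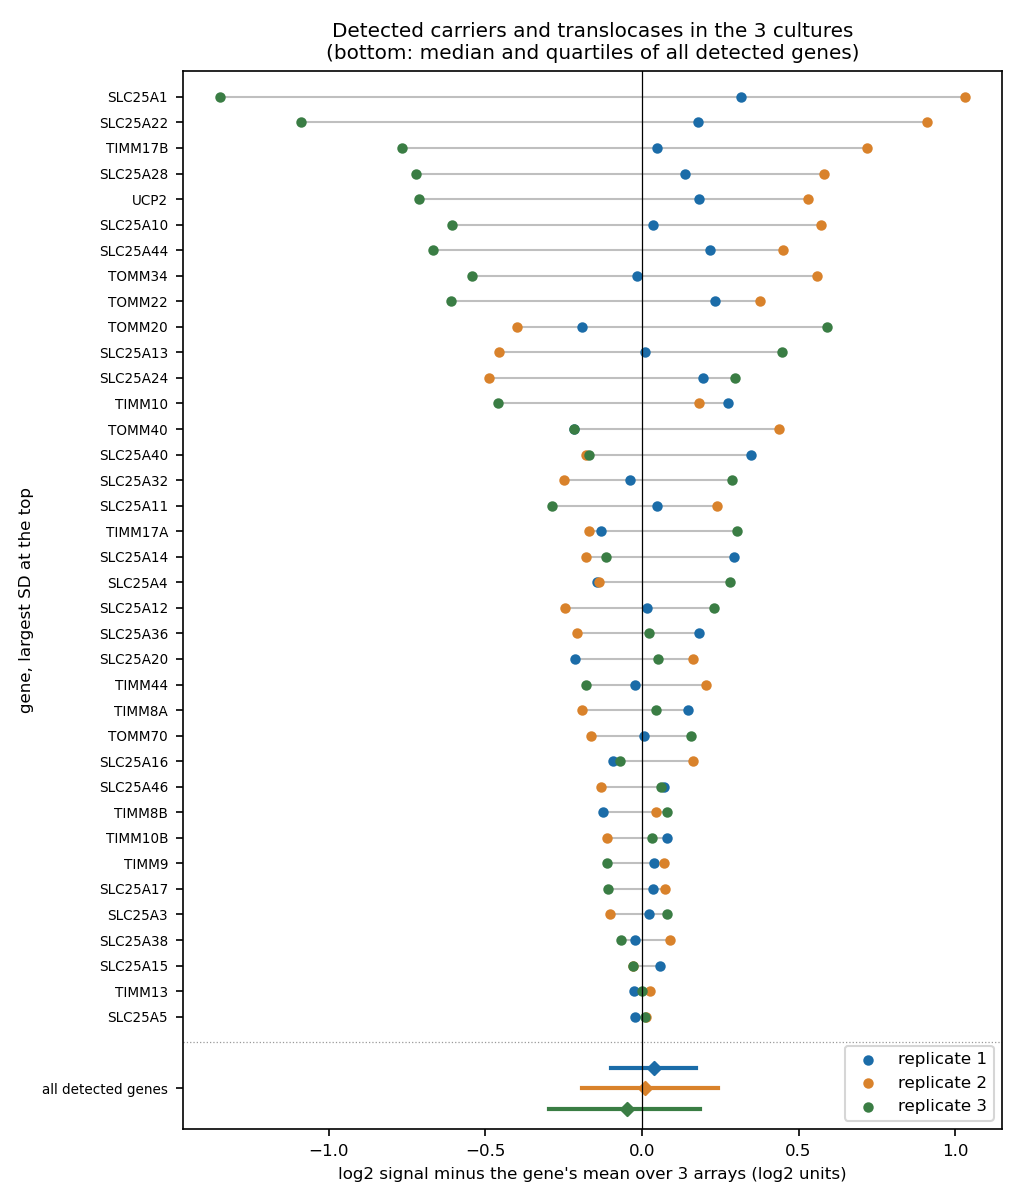
Log2 signal on each array minus the gene's mean over the 3 arrays (horizontal axis, log2 units) for the 37 detected members, with the largest SD at the top. Coloured points are replicates, and the bottom rows give the median and quartiles of all 5478 detected genes. SLC25A1, SLC25A22, TIMM17B, SLC25A28 and UCP2 have replicate 2 on the right and replicate 3 on the left, and TOMM20, SLC25A13 and SLC25A24 the reverse.

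Other genes of import and mitochondrial transport were mostly detected as well, 24 of 28 measured, against the same 45.8%. HSPD1, the matrix chaperonin, had 16061, 17514 and 26704, and its cochaperonin HSPE1 had 8320.2, 8693 and 8645. VDAC2, a pore of the outer membrane, had 6711, 6792 and 7610.5. All 3 lay over 5 log2 units above the limit. GFER, the oxidase that recharges the disulfide relay on which small TIM chaperones depend for folding, had 204, 245 and 206 and was not called (limma adjusted p = 0.0806). LETM1, an inner membrane protein of cation exchange that was added as the remaining gene not called, had 264, 183 and 269 (limma adjusted p = 0.0548). CPT2, which acts after the carnitine carrier, had 128, 132 and 151. UCP1, the uncoupling protein of brown fat, had 41.0, 138 and 40.7. CPT2 and UCP1 were under the limit on every array.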

How the data were processed

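Total RNA of 3 HT-29 cultures was labelled with biotin and hybridised to Affymetrix arrays, per the labels' protocols. The submitters' processing notes name Affymetrix Expression Console 1.1 and MAS5. The authors deposited a linear intensity for each probe set. The mean without the highest and lowest 2% was 500.3 on every array, so they had been scaled to a common level. Background steps and presence calls are not given in the sources used here. Such scaling cannot show a change shared by all genes.

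Of 22283 rows 6 were empty. Names were placed on the other 22277 values in this order: 15 unnamed, 100 probe sets numbered from 200000 to 200099, 493 with lower numbers, 21622 others in file order, and 47 unnamed. The 62 unnamed values were left out. Genes came from the platform annotation of 2016, where 19071 probe sets have 1 symbol and 1043 have several. Log2 signals, with no pseudocount added, minus the limit were tested against 0 gene by gene, using limma 3.58.1 under R 4.3.3 and a trended variance. The limit was treated as known. Each gene's variance was moderated by limma towards a trend over all genes. The p-values therefore rest on the spread between these cultures and on variance borrowed from other genes. For SLC25A5 the limma adjusted p was 7.2e-08 with the variance trend and 2.57e-05 without it. The fit was tested on simulated data with the SDs of the real genes. Of 200 genes placed at the limit 6 were called. Of 100 placed 1 log2 unit over it 82 were called, and of 100 placed 2 log2 units over it 94. The placed genes were drawn at random and kept their own SDs at the new level, and the limit was held fixed. These shares therefore need not hold for real genes at those levels. The members, lists, order of the names and tests were chosen with earlier results of these data known. Every member was named, and array values were required for those at the ends of a role group, near the threshold, changed by an alternative, most variable, or disagreeing between probe sets. Of the other transport genes the 3 with the largest and the 3 with the smallest log2 difference from the limit, sign included, were named, a choice of genes and not a comparison of their levels, and LETM1 was added after its values were seen. Promoter letters were searched after the calls were seen, and 2 of the 5 patterns are not reported here. Alternatives varied the probe set, designs, limit, normalization (quantile), pseudocount (16), variance model, filter, order and replicates. The number of arrays limits the precision.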

Additional observations from a re-analysis of the deposited data

How the results depend on the processing

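The count of detected members was 37 of 46 and ranged from 32 with the 99th percentile as the limit to 37, apart from the settings below. Without _x_at and _s_at probe sets, which leaves fewer genes to test, 23 of 33 members, 15 of 19 other transport genes and 3104 of 8369 named genes were detected, and 10 of 23 detected members were lowest in replicate 3. Under the names as deposited, where the limit itself was set by other genes' values, 1 member, 1 other transport gene and 389 named genes passed. The correlation over all genes, 0.599 in the inferred order, was 0.192 as deposited, 0.503 at the best uniform displacement and at most 0.251 elsewhere. Leaving out 1 replicate gave 33 to 37 members, 24 to 25 other transport genes and 5082 to 5522 named genes. The median SD was then 0.14 to 0.33, where an SD over 2 arrays is not comparable with one over 3. Calls and adjusted p over 2 arrays are not comparable with those over 3 either, because limma then rests more on variance from other genes. Without replicate 3, 5522 named genes passed, against 5478 with all arrays. Of the 46 members, 34 kept their side of the limit and of the threshold under all alternatives run on them, the order of the names and the filter aside.

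The sign changed for SLC25A16, at -0.50 with the median over probe sets and -0.67 without the _x_at and _s_at designs, for TIMM17A at -0.86 without those designs, and for TIMM8A at -1.59 with the median and -0.035 with the 99th percentile as the limit. SLC25A37 lay at 0.23 with the 90th percentile as the limit, and TIMM22 at -0.45 with the 99th and at -0.11 without replicate 1. Beyond the settings' own construction, the cause was not tested. No paired analysis was possible because the 3 arrays form a single group.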

Other observations

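A further 4 probe sets list a translocase together with another gene symbol and were left out of the counts above. They had signals of 5705, 6155 and 6172, of 1760.1, 1592 and 1757, of 2139, 2161 and 2072, and of 5209.8, 5256 and 5774 in replicates 1, 2 and 3. All 4 lay above the limit on every array, by 3.38 to 5.20 log2 units.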
